A study of Mus musculus with 2 samples.

Results

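The genes described here encode the proteasome and the enzymes that feed it with ubiquitin-tagged protein. They were chosen by name, as 43 listed genes, and each gene was found on the arrays through the RefSeq transcript accessions of its probes. All 43 had at least 1 probe, with 54 probes together, out of 20655 genes that could be named. Of the 43 genes, 42 were measured on both arrays, through 53 probes, and 1, Uchl3, was not well above background on either array. A probe counts as measured when most of its spots passed the scanner software's call for a signal well above background, in both samples. The list holds 15 genes of the 20S core, 17 of the 19S cap, 4 of other activator caps and 7 ubiquitin genes.

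The study asked how gene expression in the newborn mouse lens differs when the forkhead transcription factor Foxp1 is deleted there. It holds 2 samples at postnatal day 0, both total RNA of lens on a mixed C57BL/6 background. One came from a control litter mate, labelled wild-type, and the other carries the label of a knockout of Foxp1 in the lens. The treatment text of both samples names Foxp1-flox/flox and Pax6-L-Cre, so it does not separate them, and the groups rest on the source and genotype labels. The labels do not say which cells express the Cre, which exons it removes, or whether lenses of several animals were pooled. Since each genotype had 1 array, every value below compares 2 hybridisations without replicates, and effects of the array and of the genotype cannot be told apart.

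The proteasome is the barrel-shaped protease that degrades proteins tagged with ubiquitin. Its 20S core is a stack of rings of alpha subunits, which gate the entrance, and beta subunits, some of which cut peptide bonds. The 19S cap binds the core, recognizes and removes ubiquitin, and unfolds the substrate with a ring of ATPases. Ubiquitin itself is activated by an E1 enzyme and passed on to substrates through E2 and E3 enzymes. In the lens, fibre cells dismantle their organelles as they mature and then keep their proteins for life, and the ubiquitin pathway is active in the cells that still divide and differentiate.

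The values are differences of log2 processed spot signal, knockout minus control, after the 75th percentile of each array was subtracted. That percentile was 281.5 in the control and 279.1 in the knockout, and 0 spots were saturated. Fewer spots were well above background in the knockout (56.9%) than in the control (67.5%). The targeted gene itself, Foxp1, had differences of -1.84, -1.82 and -1.33 over its 3 probes, all lower in the knockout. The lens identity of the samples was checked with 9 crystallins, the structural proteins of the lens, which were all measured, with differences between -0.13 and 0.16. The SD of a spot difference, taken from 180 brighter probes that were each printed at least 5 times, was 0.11 on the log2 scale. It covers spot noise only, not differences between animals or labelling reactions.

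Proteasome and ubiquitin genes were close to equal on both arrays. Their median difference was 0.12, or 1.08-fold, with a range from -0.10 to 0.48, and 0 of the 42 measured genes were 2-fold apart in either direction. Of all 14254 measured genes 1.0% were at least 2-fold higher and 5.89% at least 2-fold lower, and of the 3564 genes in the brightest 25% by signal, where 37 of the 42 lie, 0.421% and 0.281% were. Under a smaller limit, a log2 difference of 0.32, 3 genes were higher on the knockout array, which is 7.14% of those measured. They were the lid genes Psmd7 and Psmd12 and the deubiquitinase gene Uchl5. On the lower side 0 genes passed it. The same limit was passed by 12.0% of all measured genes on the higher side and 21.7% on the lower side. Among the brightest 25% the shares were 10.7% and 2.81%. The members' share past the higher limit is thus near the background.

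A small difference in one direction was common. Of the 42 genes 38, or 90.5%, lay above 0 and 4 below, against 50.7% of all measured genes and 69.7% of the brightest 25%. That brightest set had a median of 0.08 itself, and the members' median exceeded it by 0.03. Of the 42 genes 26 lay above that median. By group the medians were 0.10 for the 20S core, 0.16 for the 19S cap and 0.05 for the other activator caps. For the 6 measured ubiquitin genes the median was 0.19. The count above 0 depended on the scaling and was 25 when the 75th percentile was taken over measured probes alone. Under that scaling the brightest 25% also moved, to a median of -0.01, and 26 members lay above it. The lower and upper quartiles were 0.03 and 0.17 for the members and -0.03 and 0.19 for the brightest 25%.

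**Figure D1:**
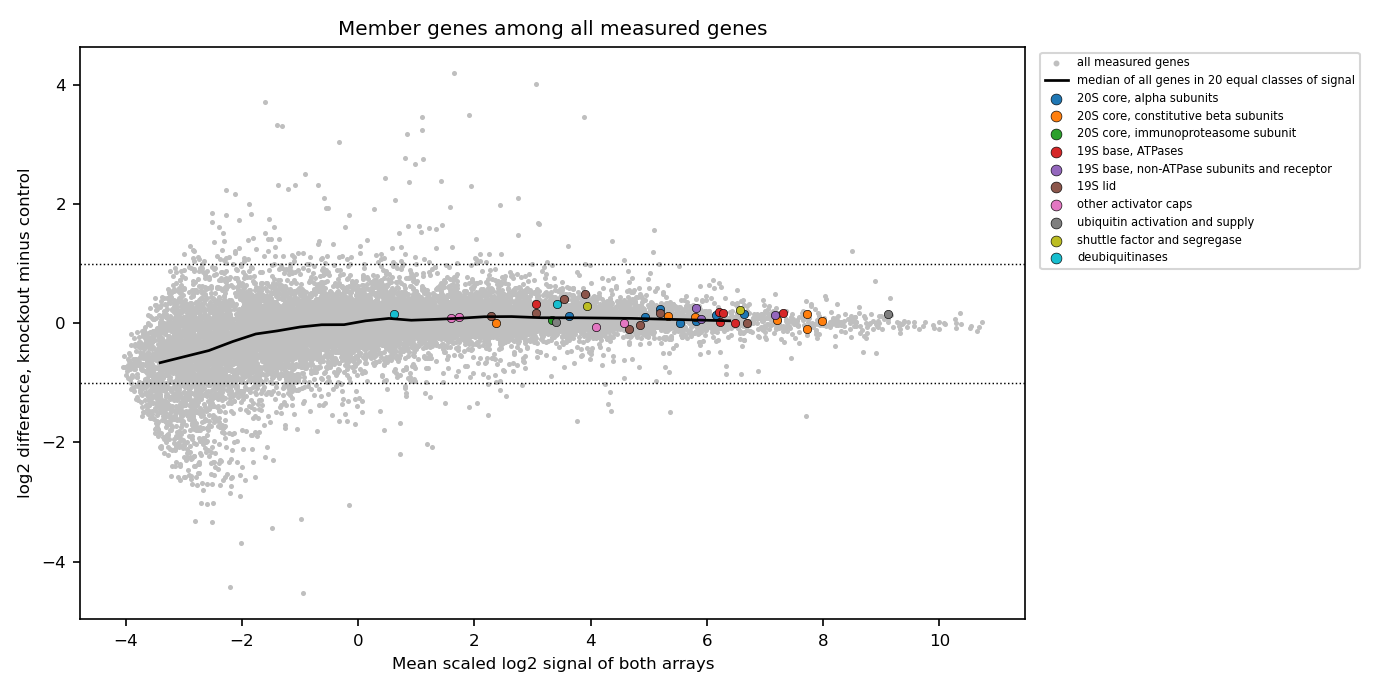
Each point is a gene, with the mean scaled log2 signal of both arrays on the horizontal axis and the log2 difference, knockout minus control, on the vertical axis. Grey points are all 14254 measured genes, coloured points are the 42 measured proteasome and ubiquitin genes by group, the line joins medians of all genes in equal classes of signal, and dotted lines mark 2-fold. The members lie along the line of medians, from -0.10 to 0.48, and dim genes lie lower on the knockout array.

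The alpha subunits form the outer rings of the 20S core and close its pore with their tails. All 7 alpha genes lay above 0, between 0.01 and 0.23, with a median of 0.12. Psma5 differed most, by 0.23, with processed signals of 9511 in the control and 11098 in the knockout. Psma6 read 13074 and 13040, which is 0.01 after scaling. Psma2, with signals of 26754 and 29493, lay at 0.15. Psma4 was read by 2 probes, which gave 0.11 and 0.13. The knockout reading was the higher one for all but Psma6 before scaling, by amounts up to 1.18-fold after it. Psma1, Psma3 and Psma7 lay at 0.10, 0.13 and 0.04. Under the percentile over measured probes, loess and quantile normalization, Psma6 lay below 0, and Psma7 did so under the first and second of these.

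The constitutive beta subunits include the catalytic ones, Psmb5 with chymotrypsin-like, Psmb6 with caspase-like and Psmb7 with trypsin-like activity. Psmb5 was read by 2 probes, with signals of 29550 and 32855 for one and 107717 and 117767 for the other, differences of 0.17 and 0.14. Psmb6 read 70307 in the control and 71450.4 in the knockout, a difference of 0.04, and Psmb7 read 10873 and 11700.3, a difference of 0.12. So the 3 catalytic genes differed by at most 1.11-fold between the arrays. Of the structural subunits, Psmb1 lay at 0.11, Psmb3 at 0.06 and Psmb2 at 0.01. Psmb4 read lower on the knockout array, at 61773 against 56989, a difference of -0.10 that turned to 0.03 after normexp correction. The 7 genes had a median of 0.06.

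Psmb10 encodes the immunoproteasome subunit that takes the place of Psmb7 in cells exposed to interferon. It read 2791 in the control and 2859.4 in the knockout, a difference of 0.05. Its partners Psmb8 and Psmb9, on a list of other subunits, were dim. Psmb8 read 43.3 and 28.6 and lay at -0.59, and Psmb9 read 54.1 and 39.2 and lay at -0.45, in the range of signal where most genes read lower on the knockout array. Of 12 macrophage and leukocyte markers, cells that carry these subunits, 9 were measured, with 7 below and 2 above 0. Their summed signal was 1276 in the control and 1215 in the knockout, and Ptprc, the pan-leukocyte marker, was dim at 40.3 and 19.1. The part of such cells in the readings of Psmb8 and Psmb9 was not tested. In whole lenses fewer cells of a type and less RNA per cell cannot be told apart.

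**Figure D2:**
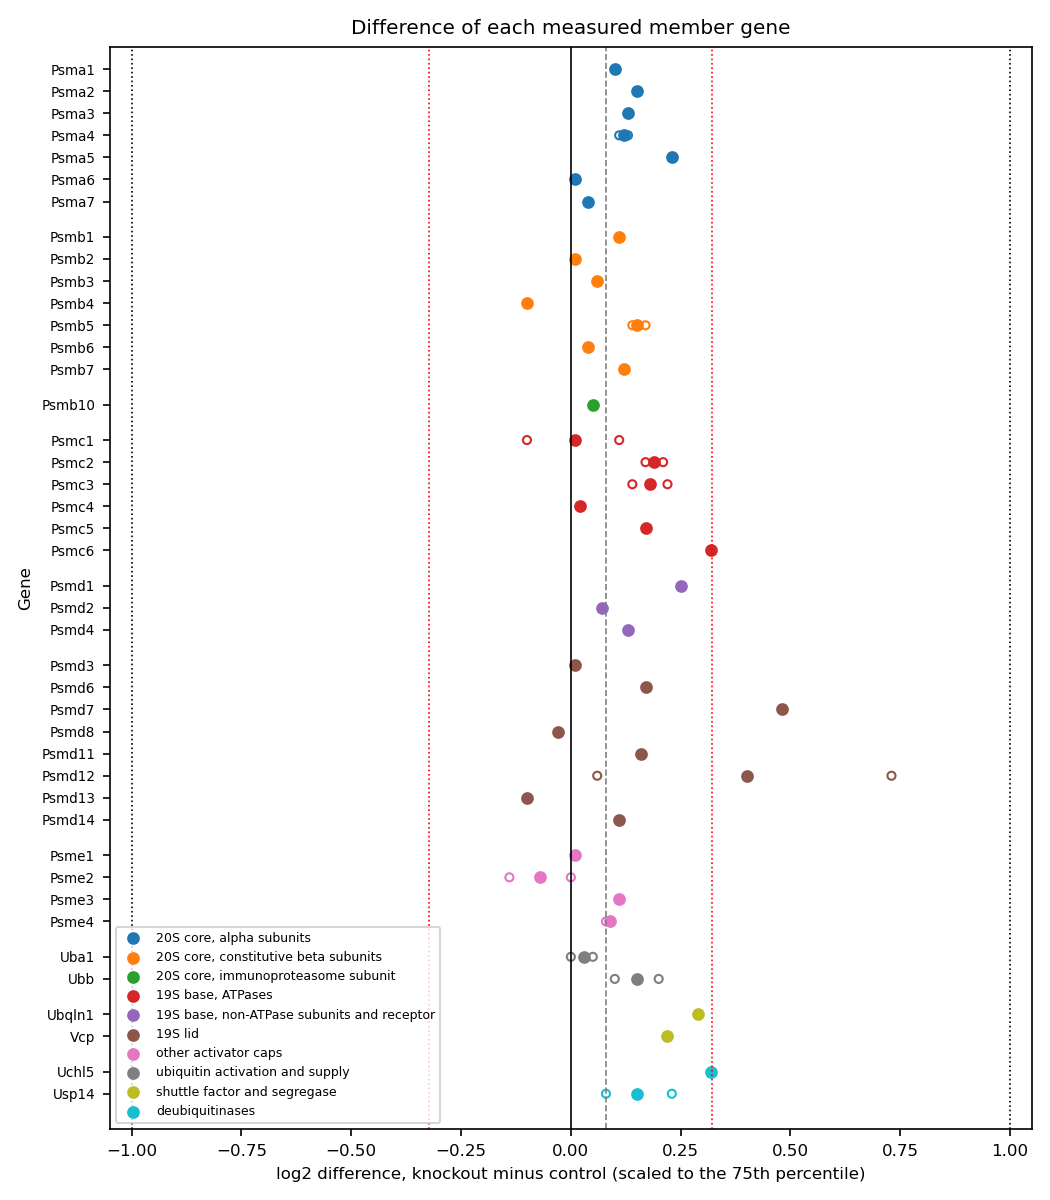
The log2 difference, knockout minus control, of each of the 42 measured genes is shown as a filled point, coloured by group, with open points for the probes of genes read by 2 probes. The solid line marks 0, the dashed line the median of the brightest 25% of genes (0.08), the red dotted lines 0.32 in either direction and the black dotted lines 2-fold. Psmd7 stands farthest to the right at 0.48, and Psmd12 combines probes at 0.06 and 0.73.

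The ATPases Psmc1 to Psmc6 form the ring of the 19S base that unfolds substrates and opens the core. All 6 lay above 0, with a median of 0.18. Psmc6 read 2089 in the control and 2589 in the knockout, a difference of 0.32 that before rounding lies just under the limit. Psmc2 had 2 probes at 0.17 and 0.21, with signals of 19976 and 22247 for the first and 18904 and 21739 for the second. Psmc3 likewise had probes at 0.14 and 0.22. In both genes the probes gave the same direction. Psmc1 had probes of opposite direction, one at -0.10 with signals of 11905 and 11053 and one at 0.11 with 53091 and 56663, so its mean of 0.01 carries no direction. Psmc5 lay at 0.17 and Psmc4 at 0.02.

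The other base subunits bind substrates and ubiquitin. Psmd1, a large scaffold of the base, read 14530.2 and 17183 on the control and knockout arrays, a difference of 0.25. Psmd4, a ubiquitin receptor, read 38988 and 42350.0, a difference of 0.13. Psmd2, which docks shuttle factors, lay at 0.07. The receptor gene Adrm1, on the list of other subunits, lay at 0.33, from 5137 to 6400.4. Both receptors thus read higher on the knockout array, and of the pair only Adrm1 passed 0.32.

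The lid removes the ubiquitin chain before the substrate enters the core, and its genes varied most among the groups, with an SD of 0.20 over 8 genes against 0.08 over the 15 core genes. Psmd7, a scaffold that pairs with the metalloprotease of the lid, read 3547 in the control and 4917 in the knockout, a difference of 0.48 or 1.40-fold, by 1 probe. It was 0.29 after normexp correction, below the limit of 0.32. Psmd14, the metalloprotease itself, read 1314.5 and 1411, a difference of 0.11. Whether the partners differ in their response was not tested, since each genotype has 1 array.

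Psmd12, another scaffold of the lid, was read by 2 probes that disagreed. The dimmer probe read 534 in the control and 880.1 in the knockout, a difference of 0.73, and the brighter probe read 15281 and 15843, a difference of 0.06. Its mean of 0.40 rests on the dimmer probe, and the brighter probe alone places it well under 0.32. Among the 11 members with 2 measured probes it was the 1 gene whose probes lay over 0.5 apart, and the median gap was 0.08. Over the 826 genes with several probes among the brightest 25% that median was 0.11. Of the remaining lid genes, Psmd6 lay at 0.17, Psmd11 at 0.16 and Psmd3 at 0.01. Psmd8 lay at -0.03 and Psmd13 at -0.10, the latter with signals of 7388 and 6824.

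The other caps bind the ends of the core without ATP. Psme1 and Psme2 form the interferon-inducible PA28 ring, Psme3 its nuclear relative, and Psme4 is the PA200 cap. Psme1 was printed as 7 spots, with mean signals of 6717 and 6710.4, and its difference was 0.01 ± 0.08 (SD over 7 spots of 1 array pair). Psme2 had probes at 0.00 and -0.14 and a mean of -0.07. Psme3 read 901.3 and 962 and lay at 0.11, and both probes of Psme4 lay close together at 0.08 and 0.09. Of the 4 genes 0 passed 0.32 in either direction, and their median was 0.05.

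**Figure D3:**
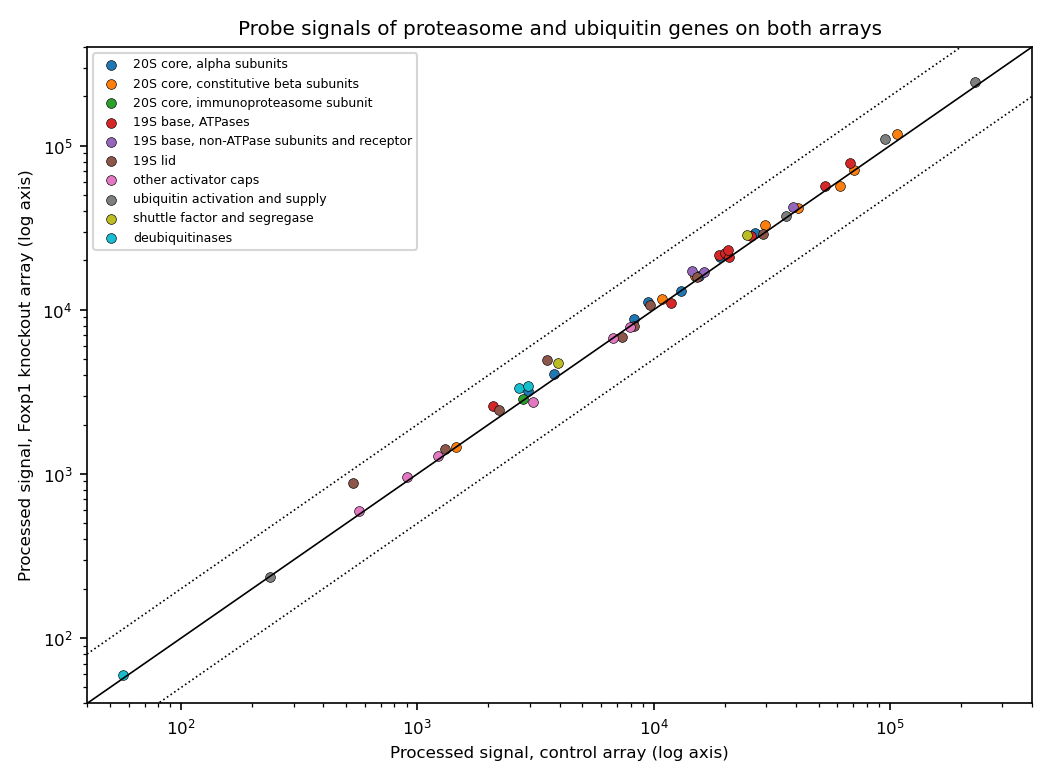
Processed signals of the 53 measured member probes are plotted on logarithmic axes, the control array across and the Foxp1 knockout array upward, coloured by group. The solid line marks equal signal and the dotted lines 2-fold. All probes lie between the dotted lines, and the probe farthest above the solid line is the dimmer one of Psmd12, at 534 and 880.1.

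Ubiquitin supply was represented by Uba1, the main ubiquitin-activating enzyme, and Ubb, a polyubiquitin gene. Uba1 had probes at 0.05 and 0.00, the first with signals of 36510.2 and 37399. Ubb read 230502 and 244564 with one probe and 95894 and 109295 with the other, differences of 0.10 and 0.20. Genes that encode ubiquitin share similar coding sequence. Whether the probes of Ubb and Rps27a read each other's transcripts was not tested. Rps27a, which encodes ubiquitin fused to a ribosomal protein, had bright probes at -0.09 and -0.06 and a dim one at -1.51, with signals of 60.9 and 21.3.

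Vcp, the segregase that pulls ubiquitin-tagged proteins out of membranes and complexes, read 24777 and 28641, a difference of 0.22. Ubqln1, a shuttle factor that carries tagged proteins to the proteasome, read 3924 and 4742, a difference of 0.29. It was 0.16 after normexp correction. Of 13 other measured shuttle factors and Vcp cofactors 10 lay above 0, 1 was higher by at least 0.32 and 0 were lower by that much, with a median of 0.14. The one was Faf1, a Vcp cofactor, with probes at 0.49 and 0.16. Among all measured genes 12.0% were higher and 21.7% lower by at least 0.32. Nploc4, which pairs with Ufd1 on Vcp, lay at 0.25 and Ufd1 at 0.03.

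The deubiquitinases of the list act at or near the 19S cap, where Uchl5 and Usp14 trim ubiquitin chains. Uchl5 was printed as 10 spots, with mean signals of 2693 in the control and 3346 in the knockout, and its difference was 0.32 ± 0.09 (SD over 10 spots), which rests on more spots than that of Psmd7 or Psmd12. It was 0.21 after quantile normalization, 0.23 after loess and 0.23 with the percentile over measured probes, all under the limit of 0.32. Usp14 had probes at 0.23, with signals of 2945 and 3416, and at 0.08, with signals of 56.8 and 59.5. The Uchl3 probe read 4.54 and 2.63 and was not well above background on either array, so no difference is given. Adrm1, which holds Uchl5 on the proteasome, lay at 0.33, as given above.

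Promoter windows were looked at for the members with the largest differences in either direction. Windows of 300 bases, from 250 before to 50 after the start of a gene, were taken from RefSeq, build GRCm38.p6, and matched by symbol. Of the 43 genes 36 had a window, and Psmb1, Psmb2, Psmb7, Psmc3, Psmd3, Psmd7 and Usp14 had none in the table. The windows of the 3 highest and the 2 lowest genes among these are printed 5′ to 3′ on the strand of the gene. Capitals mark each match, on either strand, to TGACNNNGC, the core of the antioxidant response element bound by NFE2L1 and NFE2L2, or to CGGAAG, the core of ETS factor sites.
Psmd12, chr11:107479278-107479577, plus strand: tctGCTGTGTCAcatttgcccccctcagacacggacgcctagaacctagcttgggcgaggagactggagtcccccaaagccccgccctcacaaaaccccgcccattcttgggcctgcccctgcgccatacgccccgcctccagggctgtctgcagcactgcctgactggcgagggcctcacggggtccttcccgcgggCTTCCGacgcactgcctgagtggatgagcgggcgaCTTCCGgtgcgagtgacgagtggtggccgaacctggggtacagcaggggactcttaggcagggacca
Uchl5, chr1:143777028-143777327, plus strand: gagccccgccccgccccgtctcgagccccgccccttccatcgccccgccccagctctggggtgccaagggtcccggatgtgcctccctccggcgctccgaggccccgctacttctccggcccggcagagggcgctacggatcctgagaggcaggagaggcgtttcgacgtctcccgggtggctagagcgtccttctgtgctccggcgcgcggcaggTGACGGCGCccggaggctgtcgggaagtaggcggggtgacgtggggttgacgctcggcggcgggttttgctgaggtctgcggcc
Psmc6, chr14:45329574-45329873, plus strand: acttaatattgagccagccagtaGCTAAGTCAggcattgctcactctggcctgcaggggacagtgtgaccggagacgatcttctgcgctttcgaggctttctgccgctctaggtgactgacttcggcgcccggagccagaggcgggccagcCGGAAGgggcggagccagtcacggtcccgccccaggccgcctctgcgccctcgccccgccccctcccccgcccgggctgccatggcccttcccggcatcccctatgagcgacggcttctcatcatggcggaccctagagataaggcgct
Psmb4, chr3:94886909-94887208, minus strand: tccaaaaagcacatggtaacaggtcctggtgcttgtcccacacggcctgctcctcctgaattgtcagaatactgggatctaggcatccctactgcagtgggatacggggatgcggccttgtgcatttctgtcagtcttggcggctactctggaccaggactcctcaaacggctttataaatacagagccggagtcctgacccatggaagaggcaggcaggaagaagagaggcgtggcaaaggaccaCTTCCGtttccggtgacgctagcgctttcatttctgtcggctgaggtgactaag
Psmd13, chr7:140882144-140882443, plus strand: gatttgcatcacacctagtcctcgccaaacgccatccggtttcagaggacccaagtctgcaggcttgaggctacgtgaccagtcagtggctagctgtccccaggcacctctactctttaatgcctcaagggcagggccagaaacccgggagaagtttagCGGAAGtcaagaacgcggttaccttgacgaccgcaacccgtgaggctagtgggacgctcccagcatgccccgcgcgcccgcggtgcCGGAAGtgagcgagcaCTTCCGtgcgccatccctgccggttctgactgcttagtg
The windows of Psmd12, Uchl5 and Psmc6, which lay at 0.40, 0.32 and 0.32, each hold 1 match to TGACNNNGC. Those of Psmb4 and Psmd13, both at -0.10, hold none of it (0 matches). Ubqln1, the next highest gene with a window, at 0.29, does not hold it either. CGGAAG was matched 2 times in Psmd12, 1 time in Psmc6, 0 times in Uchl5, 1 time in Psmb4 and 3 times in Psmd13. Psmd12 is among the highest through the mean of its probes, and its brighter probe alone, at 0.06, would not place it there. All genes with a printed window were picked by these same differences, so a link of either motif to the differences was not tested.

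Over all 36 members with a window, 8 held TGACNNNGC, which is 22.2%, against 17.5% of the 2913 genes with a window among the brightest 25% and 14.0% of all 27025 genes with a window. The holders were Psmb5, Psmb6, Psmc6, Psmd12, Psme4, Ubb, Uchl5 and Vcp. The 8, with Psmd12 at its probe mean of 0.40, had a median difference of 0.18 and the others one of 0.10. The spot SD of 0.11 is that of single spots and gives no error for such medians. A link of the motif to the differences was not tested. CGGAAG was held by 22 members, or 61.1%, against 40.9% of the brightest 25% and 18.8% of all genes, and its holders had a median of 0.11 against 0.14 for the rest. The longer CCGGAAGT, which contains CGGAAG, was held by 22.2%, 11.7% and 4.31%. The forkhead motif TGTTTAC was held by 0 members, 3.02% of the brightest 25% and 4.05% of all genes. TGTTTNC, which includes it, was held by 4 members, namely Psma6, Psmd8, Psmd11 and Ubb. That is 11.1%, less than the 16.3% of the brightest 25% and the 22.8% of all genes. CCAAT was held by 38.9% of members and 43.4% of the brightest 25%, and TATAAA by 11.1% and 9.37%. TGACTCAGC, TGACTCA (contained in the former) and TGACGTCA were held by 0 members, and by 0.824%, 4.87% and 4.19% of the brightest 25%. All were searched on both strands, and these are matches of letters only.

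Transcription factors that act on proteasome genes were measured as a list of 7, which also includes 2 enzymes that process NFE2L1. Of these 6 lay above 0, 2 were higher by at least 0.32 and 0 lower, with a median of 0.20. Among all measured genes 12.0% were higher and 21.7% lower by that much, and 50.7% lay above 0. Nfe2l2, the oxidative stress factor, read 468 in the control and 653 in the knockout, a difference of 0.49. Maff, a small Maf partner, lay at 0.36 at signals of 129 and 165, and Mafk lay at 0.29. Mafg, the third small Maf of the list, lay at 0.02, with probes at -0.13, 0.01 and 0.17. Nfe2l1, the factor that restores proteasome levels when the proteasome is inhibited, read 359 and 404, a difference of 0.18. Ddi2, the protease that cleaves it, lay at 0.20 and Ngly1 at -0.03.

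Assembly factors build the core and the base. Of 10 listed 9 were measured, 6 above and 3 below 0, with 0 past 0.32 in either direction and a median of 0.03. Psmg3 and Psmg2, chaperones of the alpha ring, lay at 0.26 and 0.21, while Psmg1, the partner of Psmg2, lay at -0.17 with both probes below 0, at -0.11 and -0.23. Pomp, which assembles the beta ring, had probes at 0.16 and -0.03. Psmg4, the partner of Psmg3, lay at -0.12, so each chaperone pair held 1 gene above and 1 below 0. Among the other subunits, 8 of 10 were measured with a median of 0.07. Sem1 lay at 0.16 and Psmf1, an inhibitor, at 0.12. Psma8, the testis alpha subunit, and Psmb11, the thymus beta subunit whose gene lies next to Psmb5, were above background on the control array alone, so that the knockout reading was at least 9.57-fold lower for Psma8 and at least 3.67-fold lower for Psmb11, from control signals of 117 and 44.9. Both bounds are taken against 12.1, the lowest knockout signal that passed the background call. Each rests on 1 dim probe, and dim genes as a set lay lower on the knockout array. The median spot signal was 50.23 in the control and 23.56 in the knockout.

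**Figure D4:**
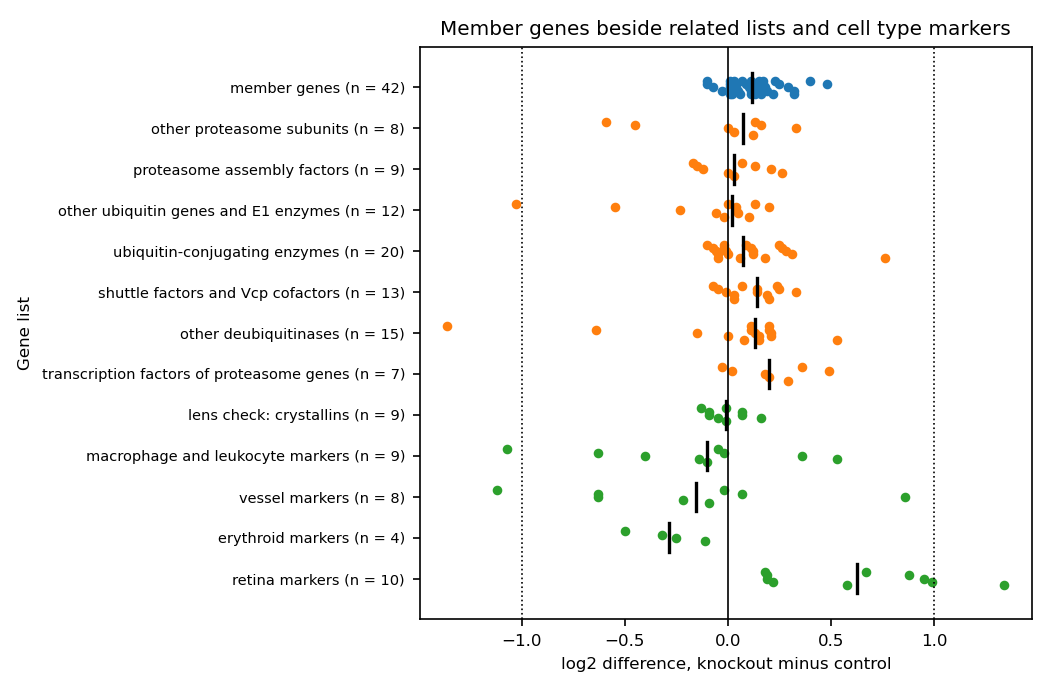
Each point is the log2 difference, knockout minus control, of 1 measured gene, by list, with a black bar at the median, blue for the proteasome and ubiquitin genes, orange for other lists of the pathway and green for crystallins and cell type markers. Dotted lines mark 2-fold. The members spread from -0.10 to 0.48 around 0.12, and the retina markers lie to the right of 0, with a median of 0.63.

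Over all lists of other pathway genes 80 of 85 genes were measured. Their median was 0.09, and 54 lay above 0 and 26 below. Of these 80 genes 6 were higher and 6 lower by at least 0.32, against 12.0% and 21.7% of all measured genes. By 2-fold or more 0 were higher and 2 lower, against 1.0% and 5.89%. The highest on these lists was Ube2c, the E2 enzyme of the anaphase-promoting complex, with probes at 0.74 and 0.79 and signals of 1513 and 2510.1 for the brighter. The other E2 enzyme of that complex, Ube2s, lay at 0.28, from 9640 to 11609. Of the 20 measured E2 genes 12 lay above 0, and their median was 0.08. Ube2d1 was above background in the knockout alone, at least 2.29-fold higher, with signals of 13.1 and 46.7. The E1 enzyme gene Uba2 lay at 0.10. Uba6, another E1 enzyme gene, had dim probes of opposite direction, at 0.41 with signals of 60.6 and 79.6 and at -0.14 with 79.7 and 71.8.

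The lowest readings were dim. Usp8, an endosomal deubiquitinase, lay at -1.36 with signals of 41.6 and 16.1, Uba7, the E1 enzyme for ISG15, at -1.03 with 88.1 and 42.8, and Cyld at -0.64 with 75.5 and 48.0. Among brighter deubiquitinases, Usp5 lay at 0.11 and Usp10 at 0.13. Usp7 lay at 0.29 with its brighter probe and at 0.02 with its dimmer one. Uchl1, abundant in neurons, was the highest of the 15 at 0.53, with signals of 8888 and 12731. Beside it, all 10 retina markers lay above 0, with summed signals of 5920.0 in the control and 8358 in the knockout, and the part of retinal tissue in the reading of Uchl1 was not tested.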

How the data were processed

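Spot intensities of 2 Agilent 1-colour arrays were used as deposited. The software was Feature Extraction 10.7.3.1 at 3 microns per the file headers, with background subtraction by that software, and the probe layout is annotated to mm9. Intensities and yes or no flags are the authors' deposited values, with no scaling between arrays recorded there.

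Control and outlier spots were left out. The log2 signal minus the 75th percentile of the array was averaged over spots, and a probe was measured when over 50% of its spots passed the background call in both samples. A gene's difference is the mean over its measured probes. Of 55655 probes, 27225 were named through RefSeq accessions of GRCm38.p6. That table gave no array coordinates. With 1 array per genotype there is no test, and limits of 2-fold and of 0.32 on the log2 scale were used. The number of arrays limits precision. The members, lists and motifs were chosen with earlier results of these data known. Named genes are all members, plus the largest differences of each list, and some genes of these lists are not reported here. A gene whose probes lie over 0.5 apart is given by probe. The steps were tested on simulated data with spot noise only, larger changes than the members show and no shift of dim genes. Python 3.11.15, statsmodels 0.14.6 (loess span 0.3) and limma 3.58.1 (normexp, offset 50, on median signals, since the files used here hold no mean signal) were used, and 9 alternatives were tried.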

Additional observations from a re-analysis of the deposited data

How the results depend on the processing

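Scaling by array medians raised the median of all genes to 1.09, that of the brightest 25% to 1.16 and that of the members to 1.20, which placed all 42 members higher by at least 0.32 and 40 by at least 2-fold. Under it the medians of other subunits, assembly factors, ubiquitin and E1 genes, E2 genes, shuttle factors, deubiquitinases and transcription factors became 1.16, 1.11, 1.10, 1.16, 1.22, 1.21 and 1.29. Relative to the brightest 25%, the members' median stayed between 0.02 and 0.05 under all 9 alternatives. By group it lay between 0.01 and 0.04 for the 20S core and between 0.05 and 0.11 for the 19S cap. For the other activator caps it lay between -0.05 and -0.01, and for the ubiquitin genes between 0.07 and 0.20. With the percentile over measured probes the brightest 25% had a median of -0.01, and 25 members lay above 0. Under it 1 member, Psmd7, was higher by at least 0.32, and after normexp 1 was, Uchl5. Without a filter the median of all genes was -0.16 and 1 member, Uchl3, was lower by at least 0.32. Changes smaller than the spot SD of 0.11 were taken as no change. Beyond it, 7 members moved after quantile normalization, 7 after normexp, 1 after loess and 1, Psmd12, with the brightest probe, at 0.06. Usp14 became 0.46 under quantile normalization. Leaving out a replicate was not possible with 1 array per genotype, and no paired analysis was possible because each group has 1 sample.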
